A study of Rattus norvegicus with 9 samples.

Results

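Oxidative phosphorylation genes were examined in the livers of rats with and without carbon tetrachloride (CCl4) fibrosis. The genes were taken by symbol: the mitochondrially encoded subunits (Mt-nd, Mt-co, Mt-cyb and Mt-atp) and the nuclear gene families Ndufa, Ndufb, Ndufc, Ndufs and Ndufv, Sdha to Sdhd, Uqcr, Cox4 to Cox8 and Atp5. This gave 94 genes of 17156 in the tables, 13 of them on mitochondrial DNA and 81 nuclear. The rule uses names alone, so it leaves out Ndufab1 and Atpif1, and it takes in Atp5s and Atp5sl, which are not structural subunits and are listed as accessory.

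Liver RNA of 9 male Sprague-Dawley rats was sequenced after poly(A) selection, 3 rats in each group. The normal rats received saline, and the model rats were given 2 ml/kg of a 50% CCl4 oil solution by mouth over 9 weeks. The TA rats had the same CCl4 course and then tormentic acid (TA), a plant triterpenoid, at 3 mg/kg for 6 weeks. All rats were fasted for 12 h before the liver was taken, and the labels call the model and TA livers hepatitis stage liver.

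Oxidative phosphorylation is the last stage of respiration. Complexes I and II take electrons from NADH and succinate, complex III passes them through cytochrome c to complex IV, and complex IV gives them to oxygen. Complexes I, III and IV pump protons across the inner mitochondrial membrane, and complex V, the ATP synthase, uses the returning protons to make ATP. Complex II is built from nuclear genes only, whereas the other complexes combine nuclear subunits with subunits made inside the mitochondrion, and hepatocytes are rich in all of them because urea synthesis and gluconeogenesis consume ATP.

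The libraries held between 13156735 and 18090405 counted reads. Model rat 1 stood apart, with a TMM factor (the scaling edgeR derives from the bulk of genes) of 1.69 against 0.82 to 1.16 in the other rats. Its 15 hepatocyte markers summed to 40137 CPM (reads scaled to a common library size), against 152366 to 191994 in normal livers, 116873 and 130832 in the other model rats and 130328 to 208785 in TA livers. Its 11 stellate cell and myofibroblast markers summed to 12997 CPM, against 248 to 395 CPM in normal livers, 1295 and 1517 CPM in the other model rats and 706 to 1201 CPM in TA livers. Hepatocyte markers were thus read in every liver, though a sum does not show each of the 15 separately.

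In normal liver the mitochondrially encoded genes were among the most abundant transcripts. On the deposited FPKM scale, which is per length, Mt-co1, the catalytic core of complex IV, was at 30129 ± 6221 (SD, n = 3). Mt-atp6, the proton channel subunit of complex V, was next at 21723 ± 6740, followed by Mt-cox3 at 18589 ± 2903, Mt-cyb of complex III at 11714 ± 1687 and Mt-co2 at 11029 ± 2993. The ranges of mean ± SD of neighbours in this order overlapped, except for Mt-cox3 and Mt-cyb. Mt-nd4 was at 216 ± 35.9 and Mt-atp8 at 22.5 ± 13.9, the lowest levels of the 13. Mt-atp8 overlaps Mt-atp6, and Mt-nd4l overlaps Mt-nd4, so reads from these pairs could be split or lost in counting, and copies of mitochondrial sequence in the nuclear genome could take reads as well.

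The nuclear subunits were all below these 5 most abundant mitochondrial genes, and several were above Mt-nd4 and Mt-atp8. The highest was Cox4i1, the ubiquitous form of complex IV subunit 4, at 886 ± 178 FPKM, followed by Atp5e at 746 ± 220, Cox7c at 705 ± 199, Cox6b1 at 658 ± 137 and Atp5b, the catalytic beta subunit of ATP synthase, at 635 ± 19.3. Within complex I, Ndufa6 reached 454 ± 70.4 FPKM and Ndufs1, the 75 kDa iron-sulfur subunit, 18.2 ± 2.22. The 6 members too low for testing in every comparison were Cox4i2, Cox6a2, Cox7a1, Cox8b, Ndufa4l2 and Atp5f1. Atp5f1 (current symbol Atp5pb), a complex V gene, was at most 0.84 CPM in any rat, and Ndufa12 of complex I was at 1.10 to 5.04 CPM. Whether reads of these 2 genes were lost in mapping or counting was not tested. Cox6a2, Cox7a1 and Cox8b are the heart and muscle forms of complex IV subunits, at 0.542, 0 and 0.0733 FPKM on average in normal liver. Cox6b2 was tested only where the model group took part.

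Of all counted reads, the 13 mitochondrial genes together took 10.6%, 10.5% and 14.7% in normal livers 1 to 3. Their share was 8.90%, 17.6% and 13.3% in model livers and 9.12%, 8.92% and 15.0% in TA livers. The 81 nuclear genes took 1.12%, 1.11% and 1.41% in normal rats, 1.12%, 0.989% and 0.958% in model rats and 1.13%, 0.943% and 1.29% in TA rats. The groups overlapped in both shares. The ratio of mitochondrial to nuclear member reads needs no scaling between libraries. It was 9.47, 9.39 and 10.4 in normal livers, 7.98, 17.8 and 13.9 in model livers and 8.11, 9.46 and 11.6 in TA livers. Model rats 2 and 3 lay above all normal rats and model rat 1 lay below all of them, so the model group was split, at 13.2 ± 4.94 (SD, n = 3) against 9.77 ± 0.587 in normal livers.

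**Figure D1:**
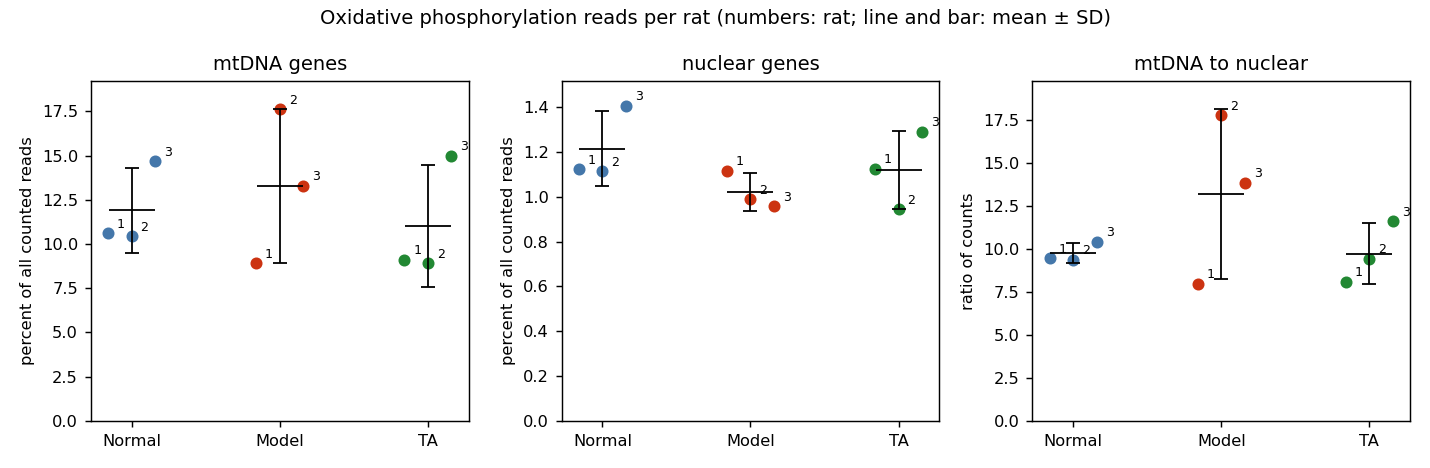
Share of all counted reads from the 13 mitochondrial genes (left, percent) and the 81 nuclear genes (middle, percent), and the ratio of mitochondrial to nuclear reads (right), for each rat by group. Points are rats with their number, and lines with bars are the mean and SD of 3 rats. In the model group the ratio ranged from 7.98 to 17.8, a wider range than the normal livers' 9.39 to 10.4.

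The first comparison asked how the subunit genes differed between fibrotic and normal liver. Nearly all nuclear subunits were at lower levels in model livers: 73 of 75 tested nuclear members (60 under library totals) had a negative log2 fold change, with a median of -0.81 (-0.75 without model rat 1) where the median of all 12730 tested genes was 0.02. Only 3 of 88 tested members passed an adjusted p of 0.05 in edgeR's quasi-likelihood test, against 7.87% of all tested genes (6.86% higher and 1.01% lower). They were Ndufb6 and Ndufs5, both lower, and Cox6b2, higher, which entered the test through its reads in model rats. The study's rule asks for a change of more than 1 log2 unit and an unadjusted p below 0.05. The study applied it to DESeq2 results, and it was applied here to edgeR results. By this rule 21 members were lower and 1 was higher, against 5.55% and 16.6% of all tested genes. A DESeq2 fit gave 22 lower and 1 higher. The 21 became 0 under library totals, 4 with limma voom, 13 with upper quartile scaling, 9 without model rat 1, 5 without normal rat 3 and 34 without model rat 3. At the adjusted p 1980, 3433, 1145, 888, 0 and 2537 of all genes passed in these fits, in that order. At an unadjusted p under 0.05 alone, 50 members were lower and 1 higher, against 10.2% and 18.7% of all genes, and these 51 became 6 under library totals. Shares of all genes at this p or by the study's rule were not counted for the alternative fits. The changed counts are therefore not results about the members alone. In 62 members every model rat lay below every normal rat, against 17.3% of all genes, and in 1 member every model rat lay above, against 20.9%.

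Ndufb6, an accessory subunit in the membrane arm of complex I encoded on chromosome 5, was at 57.1, 43.0 and 58.7 CPM in normal rats, 22.0, 20.7 and 17.7 in model rats and 34.5, 32.3 and 28.6 in TA rats. The 3 groups did not overlap, and model livers were the lowest. Its log2 fold change between model and normal livers was -1.39 (SE 0.23, edgeR adjusted p = 0.0170). Ndufs5, an accessory subunit on the intermembrane face of the same arm, also on chromosome 5, was at 40.0, 23.9 and 35.9 CPM in normal rats, 12.5, 17.0 and 16.6 in model rats and 22.5, 18.4 and 30.7 in TA rats. All model rats were below all others, while TA and normal rats overlapped. Its log2 fold change was -1.11 (SE 0.27, edgeR adjusted p = 0.0460), and it passed with every rat kept or model rat 3 left out, with an adjusted p of 0.0625 without model rat 1, 0.0858 without model rat 2 and 0.103 to 0.146 without a normal rat.

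Cox6b2, the form of complex IV subunit 6b known from testis and encoded on chromosome 1, had 1, 2 and 9 reads in normal rats, 224, 44 and 36 in model rats and 22, 9 and 17 in TA rats. These correspond to 0.0830, 0.129 and 0.755 CPM, then 10.1, 2.90 and 2.55, then 1.57, 0.761 and 1.27. The model rats were all above the rest, with model rat 1 the highest. Cox6b2 passed the filter on low counts only where the model rats took part. Entry to the test thus depended on the group in which it was highest. Its log2 fold change was 4.02 (SE 0.92, edgeR adjusted p = 0.0414), a value that rests on few reads in normal liver. It was 3.08 (SE 0.80, adjusted p = 0.0592) without model rat 1 and 4.30 (SE 0.98, adjusted p = 0.0532) without model rat 2, and the call was also lost with any single normal rat left out (adjusted p from 0.0921 to 0.172). Per length it stayed far below the general form: for each 1000 FPKM units of Cox6b1 there were 0.256, 0.409 and 1.61 units of Cox6b2 in normal rats, 49.4, 13.9 and 10.9 in model rats and 6.23, 3.30 and 3.76 in TA rats.

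The number of calls depended on the fit, among members and among all genes. As reported, 3 of 88 members and 1002 of 12730 tested genes passed. DESeq2 called 52 members and 2654 genes, and limma voom with sample weights 47 members and 3433 genes. A fit of all 9 libraries called 15 members and 1757 of 12998 genes, and scaling by library totals 1 member and 1980 genes. The member count was 1 without model rat 1 or model rat 2 (888 and 589 of all genes), 15 without model rat 3 (2537 genes) and 0 with any single normal rat left out. Without normal rat 1, 2 or 3 only 51, 0 and 0 of all tested genes passed. The calls of Ndufb6, Ndufs5 and Cox6b2 were thus lost there along with nearly all others. Under library totals the median of all genes itself moved to 0.65 and 60 of 75 nuclear members stayed negative, with a median of -0.21, a difference of -0.86 from that of all genes. On that scale 22 members lay lower in every model rat and 6 higher, against 4.76% and 43% of all genes.

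**Figure D2:**
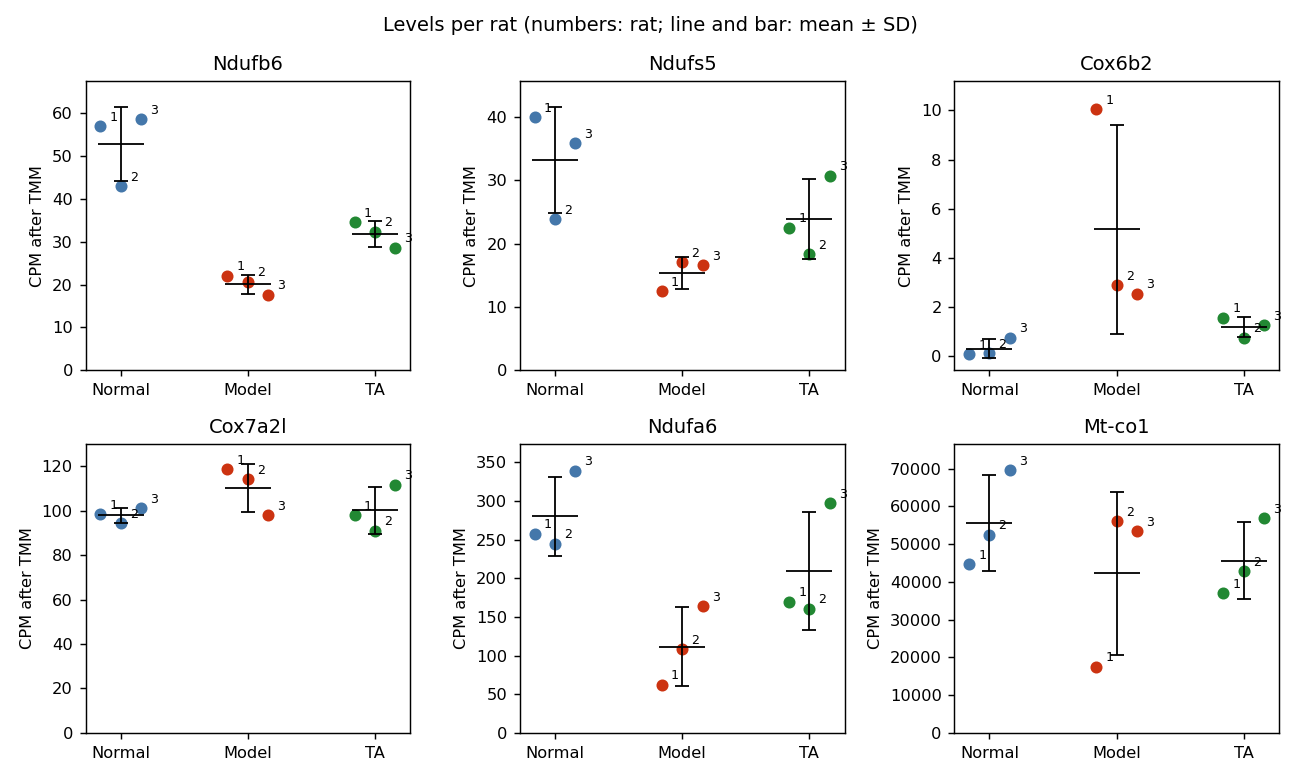
CPM after TMM scaling over all 9 libraries for 6 genes, by group. Points are rats with their number, and lines with bars are the mean and SD of 3 rats. Ndufb6 and Ndufs5 were lower in all model rats than in all normal rats, Cox6b2 was higher, Cox7a2l overlapped between groups, and Mt-co1 was low in model rat 1 but not in the other model rats.

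Upstream sequences are shown for the 3 genes that passed the test and for Ndufa6, which had the third lowest nuclear log2 fold change and carries matches to several motifs. Promoter windows from RefSeq (assembly GRCr8, 250 bases before to 50 bases after the gene start) were found for 70 of the 81 nuclear members and searched on both strands for 4 short cores known from respiratory gene promoters. The core of NRF1, GCGCATG, was present in 11 of the 70 (15.7%) and in 3.77% of all 33469 windows. The ETS core bound by GABP, CCGGAAG, was in 19 (27.1%, against 8.75%), the YY1 core AAGATGG in 18 (25.7%, against 7.01%) and the core of the estrogen-related receptors, AAGGTCA, in 10 (14.3%, against 4.61%). At least 1 core was present in 39 member windows (55.7%, against 21.8%). The windows of all genes were not matched to those of the members by gene class, expression or base content. The shares therefore do not show that the cores are particular to this pathway. The 250 upstream bases below lie at chr5:60206153-60206402 (minus strand) for Ndufb6, chr5:141264403-141264652 (minus) for Ndufs5, chr7:115750318-115750567 (minus) for Ndufa6 and chr1:78122621-78122870 (plus) for Cox6b2, written 5′ to 3′ on the gene's strand, with matches to the cores in capitals.
Ndufb6: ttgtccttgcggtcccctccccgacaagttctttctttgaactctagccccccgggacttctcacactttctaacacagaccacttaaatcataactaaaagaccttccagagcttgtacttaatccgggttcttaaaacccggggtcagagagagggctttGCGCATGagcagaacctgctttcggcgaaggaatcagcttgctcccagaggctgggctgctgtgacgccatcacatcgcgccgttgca
Ndufs5: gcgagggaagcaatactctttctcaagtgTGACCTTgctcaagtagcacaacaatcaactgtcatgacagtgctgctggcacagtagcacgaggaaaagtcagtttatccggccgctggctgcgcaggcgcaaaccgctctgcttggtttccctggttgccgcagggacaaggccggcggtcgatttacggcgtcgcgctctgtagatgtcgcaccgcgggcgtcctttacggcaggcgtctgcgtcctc
Ndufa6: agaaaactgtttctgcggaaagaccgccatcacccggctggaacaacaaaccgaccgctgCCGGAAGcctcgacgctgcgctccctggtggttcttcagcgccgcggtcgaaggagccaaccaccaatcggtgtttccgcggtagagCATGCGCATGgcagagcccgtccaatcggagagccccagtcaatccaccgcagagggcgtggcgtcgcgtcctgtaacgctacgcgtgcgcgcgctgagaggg
Cox6b2: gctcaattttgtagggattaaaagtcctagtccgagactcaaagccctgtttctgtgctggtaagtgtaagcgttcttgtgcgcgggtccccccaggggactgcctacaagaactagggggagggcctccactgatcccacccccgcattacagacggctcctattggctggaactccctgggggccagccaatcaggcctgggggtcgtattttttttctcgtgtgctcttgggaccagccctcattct
Ndufb6 held an NRF1 core, Ndufs5 an estrogen-related receptor core on the opposite strand, and Ndufa6 an ETS core followed by 2 overlapping NRF1 cores on opposite strands. The Ndufa6 window held a further YY1 core in the bases after the start, which are not shown, and the Cox6b2 window held none of the 4 cores. A match is a description of the letters and was not tested as a binding site.

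Complex I had the lowest median log2 fold change of the complexes between model and normal livers, at -0.91, and all 34 of its tested nuclear subunits were negative (29 under library totals, median -0.34). The medians of the other complexes, given next, also stayed negative under library totals, from -0.10 for complex II to -0.20 for complex III. Of the 34 complex I subunits, 2 passed the adjusted p, both lower, against 1.01% of all genes. After TMM scaling 29 of the 34 lay lower in every model rat than in every normal rat, against 17.3% of all genes. Ndufv1, which binds NADH and flavin at the entry of the chain, was at 170, 171 and 225 CPM in normal rats, 84.6, 101 and 118 in model rats and 156, 138 and 182 in TA rats. The model rats lay below all others, with a log2 fold change of -0.90 against normal (SE 0.28, edgeR adjusted p = 0.0857). Ndufa6, which anchors an acyl carrier protein to the complex, was at 257, 244 and 339 CPM in normal rats, 62.1, 108 and 164 in model rats and 170, 161 and 297 in TA rats, with a log2 fold change of -1.33 (SE 0.40, edgeR adjusted p = 0.0805).

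Other complex I subunits differed in how far they moved. Ndufs1 was at 48.3, 59.7 and 53.0 CPM in normal rats and 44.0, 50.4 and 52.1 in model rats, which overlapped (log2 fold change -0.13, SE 0.21, edgeR adjusted p = 0.705). Ndufb7, a small subunit of the membrane arm, was at 135, 141 and 316 CPM in normal rats against 60.3, 82.5 and 93.9 in model rats, a log2 fold change of -1.32 (SE 0.41), with normal rat 3 well above the others. Ndufa9, at the joint of the matrix and membrane arms, and Ndufb8 of the membrane arm had log2 fold changes of -0.66 (SE 0.25) and -0.77 (SE 0.26) with no overlap between groups. Ndufa10l1, a relative of Ndufa10, and Ndufa12 overlapped, at -0.10 (SE 0.36) and -0.63 (SE 0.50). None of these passed the adjusted threshold, and Ndufs1, Ndufa10l1 and Ndufa12 turned positive under library totals.

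**Figure D3:**
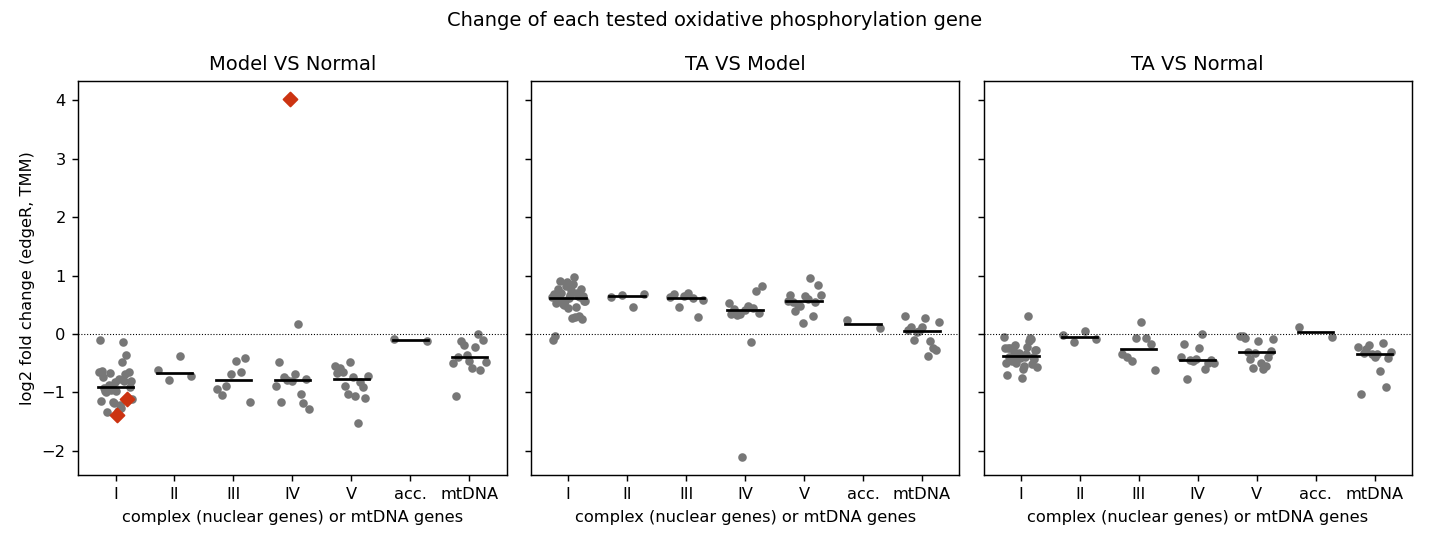
log2 fold change (vertical axis, edgeR with TMM scaling) of each tested member in the 3 comparisons, grouped by complex for nuclear genes and pooled for the mitochondrial genes (mtDNA). Points are genes, black lines are medians and red diamonds mark an adjusted p under 0.05. The nuclear medians lie below 0 between model and normal livers and above 0 between TA and model livers, under library totals too except for complex IV in the latter (-0.03) and the accessory pair in both (0.50 and -0.27; also 0.02 in the first with upper quartile scaling), whereas the median of the mitochondrial genes turned positive in the first under library totals and limma voom, and negative in the second under these and upper quartile scaling.

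The 4 subunits of complex II had a median of -0.67. Sdha, the flavoprotein that oxidises succinate, was at 186, 231 and 132 CPM in normal rats, 96.3, 118 and 142 in model rats and 196, 223 and 131 in TA rats, so that model rat 3 lay above normal rat 3. Its iron-sulfur partner Sdhb was at 145, 173 and 219 CPM against 90.6, 94.9 and 126, without overlap (log2 fold change -0.78, SE 0.29, edgeR adjusted p = 0.127).

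Complex III had a median of -0.79, with all 8 subunits negative. After TMM scaling 7 were without overlap, against 17.3% of all genes lower without overlap. Uqcrfs1, the Rieske iron-sulfur protein, was at 188, 204 and 199 CPM in normal rats, 91.4, 122 and 162 in model rats and 208, 185 and 180 in TA rats (log2 fold change -0.65, SE 0.30, edgeR adjusted p = 0.198). The core proteins Uqcrc1 and Uqcrc2 had log2 fold changes of -0.68 (SE 0.28) and -0.46 (SE 0.26, positive under library totals), and only the groups of Uqcrc1 did not overlap. Uqcrq, a small subunit next to cytochrome b, had the lowest value of the complex, at -1.16 (SE 0.41, edgeR adjusted p = 0.115).

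Complex IV was less uniform. Of 13 tested nuclear members 11 were negative, with a median of -0.78. Cox4i1 was at 662, 683 and 977 CPM in normal rats, 336, 422 and 493 in model rats and 532, 514 and 764 in TA rats, with the model rats below all others and a log2 fold change of -0.89 against normal (SE 0.38, edgeR adjusted p = 0.169). Cox6c, Cox6a1, Cox6b1 and Cox8a, general subunits of the complex, lay between -0.73 and -0.81 without overlap. Cox5a, a general subunit as well, was at -0.47 (SE 0.27), overlapped and turned positive under library totals. Ndufa4, first named as a complex I subunit and now placed in complex IV, was at 214, 147 and 310 CPM in normal rats, 44.4, 117 and 116 in model rats and 133, 114 and 240 in TA rats (log2 fold change -1.28, SE 0.46, edgeR adjusted p = 0.116). Cox7a2 was counted at only 1.57 to 5.79 CPM in all 9 rats and overlapped, and near-identical copies elsewhere in the genome could take its reads.

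Cox7a2l, which joins complexes III and IV in supercomplexes, was the other nuclear member with a positive value. It was at 98.5, 94.4 and 101 CPM in normal rats, 119, 114 and 98.0 in model rats and 97.9, 90.9 and 112 in TA rats, which overlapped, with a log2 fold change of 0.17 (SE 0.23, edgeR adjusted p = 0.647). Set against Cox4i1 on the FPKM scale, it stood at 88.0, 81.8 and 61.2 per 1000 in normal rats, 209, 160 and 118 in model rats and 109, 105 and 86.5 in TA rats, so that this ratio was higher in all model rats than in the rest.

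The isoforms linked to low oxygen were rare. Cox4i2, the alternative form of subunit 4, had 5, 1 and 4 reads in normal rats, 55, 24 and 2 in model rats and 3, 2 and 9 in TA rats. Model rats 1 and 2 were the highest and model rat 3 was not. Ndufa4l2 had 1, 3 and 0 reads in normal rats, 39, 5 and 6 in model rats and 0, 1 and 7 in TA rats, where only model rat 1 stood clearly out. Neither gene passed the filter on low counts.

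All 14 tested nuclear genes of complex V had lower values in model livers (12 under library totals), with a median of -0.78. After TMM scaling each was without overlap, against 17.3% of all genes lower without overlap. Atp5i, subunit e of the membrane part (current symbol Atp5me), was at 126, 70.9 and 186 CPM in normal rats, 30.7, 62.1 and 40.0 in model rats and 59.9, 36.5 and 160 in TA rats. Its log2 fold change of -1.52 (SE 0.42, edgeR adjusted p = 0.0637) was the lowest among tested members, and TA rat 3 lay far above the other TA rats. Atp5a1 and Atp5b, the alpha and beta subunits of the catalytic head, were at -0.56 (SE 0.33, positive under library totals) and -0.67 (SE 0.40), with Atp5b at 1287, 1323 and 1413 CPM in normal rats, 679, 923 and 920 in model rats and 1351, 1270 and 1366 in TA rats. The c ring of the rotor is made of 1 mature protein encoded by Atp5g1, Atp5g2 and Atp5g3. Their log2 fold changes were -1.03 (SE 0.31), -0.47 (SE 0.28, positive under library totals) and -0.74 (SE 0.36). Atp5g1 made up 26.0%, 23.6% and 29.7% of their summed FPKM in normal rats, 18.6%, 24.8% and 20.1% in model rats and 22.1%, 20.0% and 23.5% in TA rats. The accessory Atp5s and Atp5sl overlapped between groups, at -0.08 (SE 0.30) and -0.13 (SE 0.19).

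The mitochondrial genes did not separate the groups. No member of the 13 passed any of the rules and none was free of overlap between model and normal livers. Mt-co1 was at 44699, 52513 and 69632 CPM in normal rats, 17476, 56117 and 53345 in model rats and 37015, 42847 and 56832 in TA rats. Model rat 1 was far below the rest and the other model rats lay within the normal range, and the log2 fold change of -0.39 had an SE of 1.08 (edgeR adjusted p = 0.834). Mt-cyb was at 14897, 13970 and 19110 CPM in normal rats, 6492, 18103 and 12636 in model rats and 10030, 11017 and 17624 in TA rats, with the same rat lowest.

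The other mitochondrial genes had log2 fold changes between model and normal livers from -1.07 (SE 0.81) for Mt-atp8, at most 8.31 CPM in any rat, to 0.01 (SE 0.38) for Mt-nd4. Among the complex I genes, Mt-nd1, Mt-nd2, Mt-nd3, Mt-nd4l, Mt-nd5 and Mt-nd6 were at -0.47, -0.59, -0.22, -0.62, -0.11 and -0.48, with SEs from 0.54 to 0.73. Mt-co2, Mt-cox3 and Mt-atp6 were at -0.12, -0.19 and -0.49, with SEs from 0.71 to 0.83. The median of the 13 was -0.39 with all rats, -0.07 without model rat 1, -0.23 without normal rat 3 and -0.66 without model rat 2, where all 13 were negative. Under library totals and under limma voom 10 of the 13 were positive, 9 of which had changed sign.

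**Figure D4:**
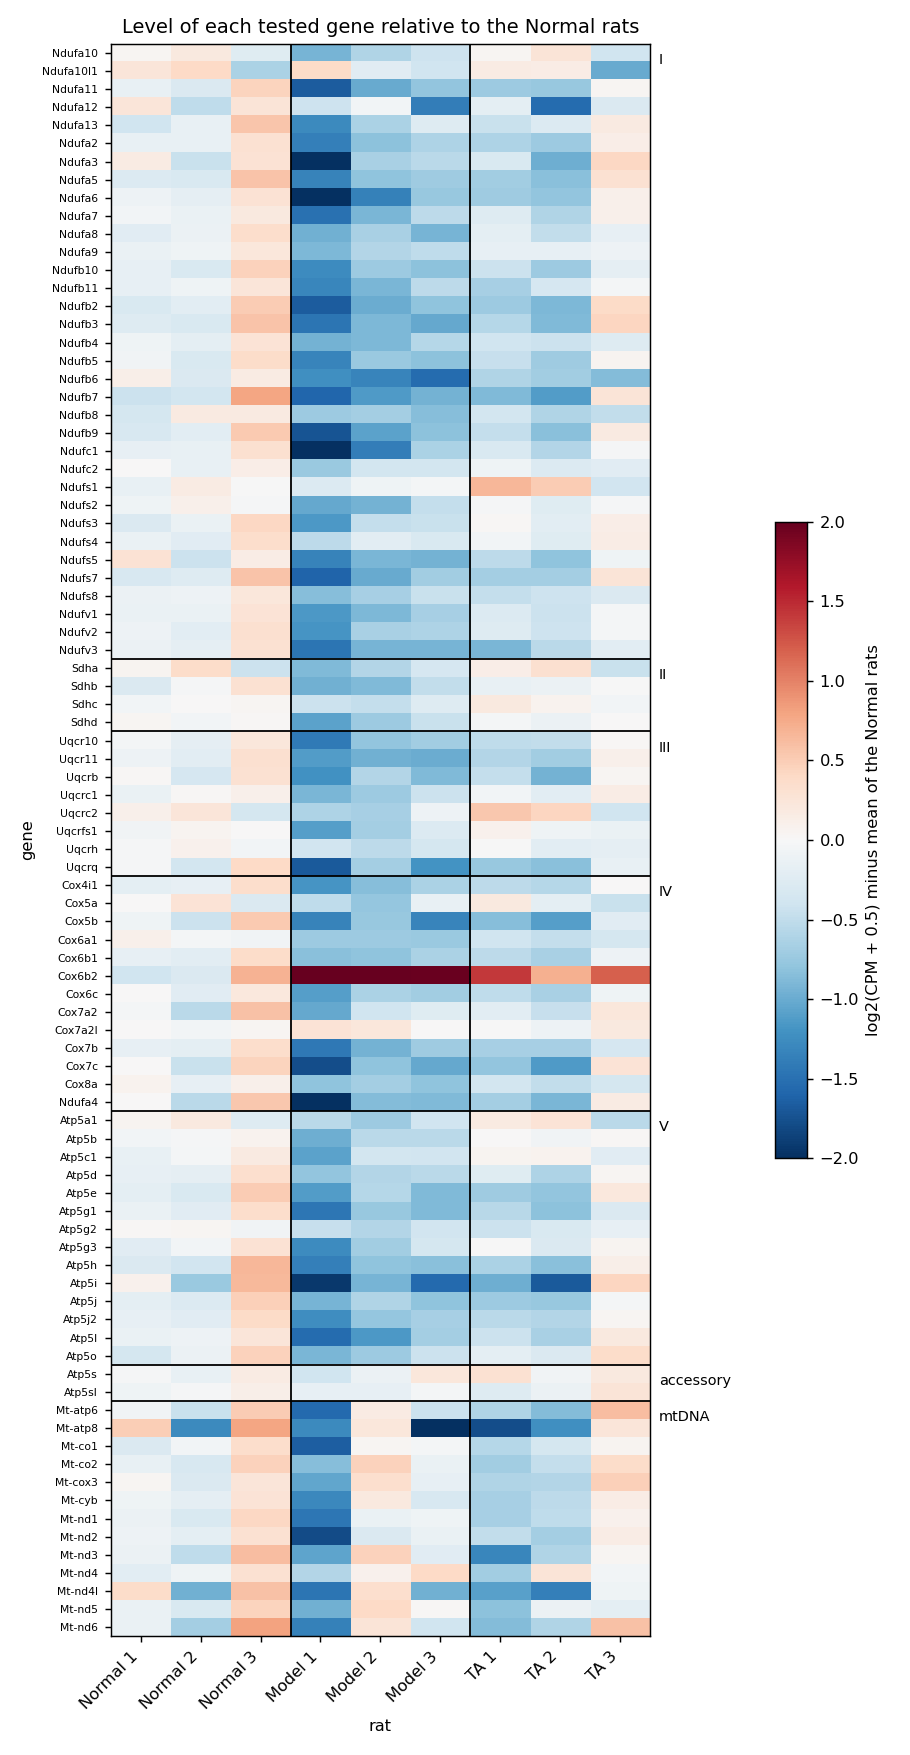
Heat map of log2(CPM + 0.5) minus the mean of the 3 normal rats (colour, from -2 in blue to 2 in red) for each tested member (rows, by complex) in each of the 9 rats (columns). Most nuclear rows are blue in the 3 model rats, deepest in model rat 1. The mitochondrial rows are blue in model rat 1 and mixed in model rats 2 and 3, and Cox6b2 is red in all model rats. The colours hold for TMM scaling, and under library totals 60 of 75 nuclear members were lower in model than in normal livers.

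The second comparison asked how the genes differed between TA-treated and untreated fibrotic liver. Of 75 tested nuclear members 71 (53 under library totals) had a positive log2 fold change, with a median of 0.56 (0.37 without TA rat 3, 0.42 without model rat 1 and 0.32 with limma voom) beside -0.00 for all 12781 tested genes, but no member passed the adjusted p. No gene of the whole table passed it either (0% of all tested genes), and the smallest adjusted p of a member was 0.260, for Cox6b2. DESeq2 called 1 member, Cox6b2 (541 of all genes), and limma voom with sample weights 0 (169 of all genes). By the study's rule Cox6b2 was lower and no member higher, against 10.2% and 2.11% of all genes. Without model rat 1 Cox6b2 no longer passed it, and 4 members were higher without model rat 3, 5 without TA rat 2 and 1 without TA rat 1. At an unadjusted p under 0.05, 12 members were higher and 1 lower, against 4.17% and 11.5% of all genes. In 36 members every TA rat lay above every model rat, against 10.5% of all genes, and in 1 member every TA rat lay below, against 12.6%. The count of 13 at the unadjusted p fell to 1 without model rat 1, to 2 without model rat 2, to 2 without TA rat 1 and to 6 without TA rat 3, and it was 1 under library totals, 3 with upper quartile scaling, 7 with the replicate number as a block, 22 with all 9 libraries, 26 with DESeq2 and 28 with limma voom. Shares of all genes at the unadjusted p or by the study's rule were not counted for these alternative fits. The changed counts are therefore not results about the members alone. Under library totals the median of all genes moved to -0.48, and the nuclear median was 0.14 with 53 of 75 members positive. On that scale 1 member lay higher in every TA rat and 4 lower, against 2.71% and 25% of all genes.

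By complex the median was 0.62 for complex I, 0.65 for II, 0.62 for III, 0.41 for IV (-0.03 under library totals) and 0.56 for V, and without TA rat 3 it was 0.40 for I, 0.24 for IV and 0.33 for V. The highest values were those of Ndufc1 (0.97, SE 0.39), Atp5i (0.95, SE 0.55), Ndufa6 (0.91, SE 0.44) and Ndufb3 (0.89, SE 0.37), which are accessory or small membrane subunits. Ndufc1 was at 26.3, 43.0 and 72.0 CPM in model rats and 90.7, 74.4 and 110 in TA rats, without overlap but with model rat 3 close to TA rat 2. Ndufb3 was at 21.6, 32.3 and 29.6 CPM in model rats and 40.4, 32.5 and 81.8 in TA rats, where model rat 2 and TA rat 2 nearly met. Ndufb6 and Ndufs5 had log2 fold changes of 0.66 (SE 0.21, edgeR adjusted p = 0.264) and 0.64 (SE 0.27, edgeR adjusted p = 0.314).

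Cox6b2 was lower in all TA rats than in all model rats, with a log2 fold change of -2.10 (SE 0.65, edgeR adjusted p = 0.260; DESeq2 adjusted p = 0.0498), which was -1.16 (SE 0.50) without model rat 1. Cox7a2l, Ndufa10l1 and Ndufa12 had values of -0.14, -0.11 and -0.04 and overlapped. The mitochondrial genes ranged from -0.37 for Mt-nd3 to 0.32 for Mt-atp6, with SEs from 0.42 to 1.05 and no gene without overlap. Their median of 0.06 became -0.24 without model rat 1, with all 13 negative, and -0.34 without TA rat 3, but 0.39 without model rat 2, with 12 positive, 0.24 without TA rat 1 and 0.17 without TA rat 2. It was also below 0 under limma voom (-0.64), library totals (-0.35) and upper quartile scaling (-0.07).

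The third comparison set TA livers beside normal livers. Of 74 tested nuclear members 69 were negative (51 under library totals), with a median of -0.34 beside -0.01 for all 12179 tested genes, and none passed the adjusted p, which 0.263% of all tested genes did (0.23% higher and 0.0328% lower). The nuclear median was -0.16 without normal rat 3, with 60 members negative, -0.21 without TA rat 2 and -0.15 under library totals. By the study's rule no member passed, against 1.02% of all genes lower and 4.24% higher, while 7 were lower without TA rat 3. DESeq2 called 1 member, Ndufb6, and 360 of all genes. At an unadjusted p under 0.05, 9 members were lower and none higher, against 3.44% of all genes lower and 5.99% higher. In 11 members every TA rat lay below every normal rat, against 6.81% of all genes, and in no member did every TA rat lie above, against 8.26%. Under library totals 4 members lay lower in every TA rat and 1 higher, against 2.77% and 14.5% of all genes. With the replicate number as a block, 41 members in place of 9 reached the unadjusted p and the smallest adjusted p was 0.0516, so the block passed no member. Of all tested genes the block passed 203 at the adjusted p, in place of 32. The count of 9 was 2 without normal rat 3, TA rat 1 or TA rat 2, 4 without normal rat 1 and 43 without TA rat 3, and it was 1 under library totals, 3 with all 9 libraries, 5 with upper quartile scaling and 25 with limma voom. At the adjusted p 61 of all genes passed without TA rat 3 and 126 with limma voom. Shares of all genes at the unadjusted p or by the study's rule were not counted for the alternative fits. The changed counts are therefore not results about the members alone.

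Ndufb6 had the smallest adjusted p of the members in this comparison, with a log2 fold change of -0.76 (SE 0.20, edgeR adjusted p = 0.197), and all TA rats lay below all normal rats. Cox5b, a zinc-binding subunit of complex IV, was at 212, 167 and 326 CPM in normal rats, 89.0, 134 and 90.3 in model rats and 124, 105 and 192 in TA rats (log2 fold change between TA and normal -0.77, SE 0.31, edgeR adjusted p = 0.472). Complex IV had the lowest median, at -0.44, followed by complex I at -0.37, complex V at -0.31 and complex III at -0.26, and without normal rat 3 those of IV, I and V were -0.26, -0.16 and -0.15. The complex II median was -0.05 (0.13 under library totals), with Sdhc, a membrane anchor, at 136, 142 and 145 CPM in normal rats, 104, 101 and 118 in model rats and 161, 148 and 135 in TA rats (0.04, SE 0.18). The highest values belonged to Ndufs1 (0.30, SE 0.28) and Uqcrc2 (0.20, SE 0.29). Ndufs1 was at 84.9, 76.0 and 41.0 CPM in TA rats, so that TA rats 1 and 2 lay above all normal rats and TA rat 3 below them. All 13 mitochondrial genes were negative (12 under library totals), from -1.03 (SE 0.73) for Mt-atp8 to -0.16 (SE 0.28) for Mt-nd4, and each overlapped. Their median of -0.34 was -0.16 without normal rat 3, where 4 were positive, -0.19 without TA rat 1, -0.65 without TA rat 3 and -0.15 under library totals. Each of these comparisons shares a group with the others, so their values are not independent of each other.

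Among the nuclear members the deviation of a rat went with transcript length in some libraries. The 75 genes tested between model and normal livers were divided at the median exon length of 726 bases, and the median log2 deviation of the short genes minus that of the long ones was 0.23 in normal rat 3, 0.17 in TA rat 3, 0.10 in normal rat 1 and 0.02 in normal rat 2. It was -0.21, -0.05 and -0.06 in model rats 1 to 3 and -0.17 in both TA rats 1 and 2. Across the 75 genes, which share their library and are not replicates, Spearman's rho between length and deviation ran from -0.49 in normal rat 3 to 0.52 in TA rat 2. Normal rat 3 and TA rat 3 were also the rats with the highest nuclear member levels of their groups, and the part of length or of RNA quality in the results was not tested.

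Other mitochondrial gene lists were read beside the subunits, and under library totals, where the median of all genes was 0.65, their medians between model and normal livers all turned positive, from 0.04 to 0.64. Of 70 tested mitochondrial ribosomal protein genes, which make the subunits encoded inside the organelle, 66 were negative between model and normal livers (30 under library totals), with a median of -0.55. Of these 3 passed the adjusted p, all lower, against 1.01% of all tested genes lower and 6.86% higher. They were Mrpl34 (-1.05, SE 0.23, edgeR adjusted p = 0.0369), Mrpl14 (-1.36, SE 0.32, adjusted p = 0.0418) and Mrpl43 (-0.84, SE 0.20, adjusted p = 0.0459). Of 50 assembly factors 1 passed, Fmc1, needed for complex V assembly (-1.12, SE 0.27, edgeR adjusted p = 0.0442), and the median was -0.36. Of 30 import and cristae genes 1 passed, Pam16 of the import motor (-0.96, SE 0.23, adjusted p = 0.0462), and the median was -0.50. Without model rat 1 Fmc1 and Pam16 no longer passed (adjusted p = 0.0574 and 0.0587), Mrpl43 did not without model rat 3 (0.0536), and none of these 5 genes passed without model rat 2 or with a single normal rat left out. With a normal rat left out at most 51 of all tested genes passed.

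Inner membrane carriers gave values on both sides of 0. The list's median was -0.42 (-0.27 without model rat 1). Of 19 tested, 2 passed and both were higher in model livers, against 6.86% of all tested genes higher and 1.01% lower. They were Slc25a4, the heart and muscle form of the ADP/ATP carrier (3.11, SE 0.59, edgeR adjusted p = 0.0269), and Tspo, an outer membrane protein grouped with the carriers (2.15, SE 0.43, adjusted p = 0.0293). Neither passed with a single normal rat left out, where at most 51 of all genes did, and Tspo did not without model rat 2. The uncoupling protein family member Ucp2 had a log2 fold change of 2.46 (SE 0.62, edgeR adjusted p = 0.0505). The electron entry list of 23 genes (median -0.53), the 34 tested genes of mitochondrial DNA expression (-0.40), the 22 citrate cycle genes (-0.28), the 13 mitophagy and dynamics genes (-0.13) and the 18 regulators (-0.04) held no call. Among the regulators, Myc was at 1.65 (SE 0.42, edgeR adjusted p = 0.0524) and the coactivator Ppargc1b at -1.40 (SE 0.49, adjusted p = 0.110). Among citrate cycle genes, fumarase (Fh) was at -1.12 (SE 0.41) and Pdk3, a kinase that inhibits pyruvate dehydrogenase, at 2.44 (SE 0.67, edgeR adjusted p = 0.0625). The 76 tested cytosolic ribosomal protein genes had a median of 0.15, with 1 call, Rps21 (-1.37, SE 0.28, edgeR adjusted p = 0.0316), which was lost without model rat 2 or a single normal rat, and the list's median was 0.01 without model rat 1.

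Between TA and model livers none of these lists held a call and their medians lay between 0.13 for the regulators and 0.63 for electron entry (between -0.30 and 0.18 under library totals), with -0.19 for cytosolic ribosomal proteins. The smallest adjusted p belonged to Pdp2, a phosphatase that activates pyruvate dehydrogenase (log2 fold change 1.77, SE 0.36, edgeR adjusted p = 0.230). Between TA and normal livers none held a call either. The mitochondrial ribosomal proteins were at a median of -0.25 and the assembly factors at -0.12, while the other mitochondrial lists lay between -0.08 and 0.16 and the cytosolic ribosomal proteins at -0.04. Under library totals 5 of these 9 medians and that of the cytosolic ribosomal proteins changed sign.

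Markers of cell types moved between the groups with the subunit genes. Between model and normal livers, all 15 hepatocyte markers had a negative log2 fold change with a median of -0.98 and no call, while 7 of 11 stellate cell and myofibroblast markers (median 3.59), 6 of 7 cholangiocyte markers (3.63) and 2 of 10 macrophage markers (1.24) were called higher. Of all tested genes 6.86% were called higher and 1.01% lower. Without model rat 1 the marker medians were -0.58, 1.97, 3.08 and 0.48, with 7 stellate cell, 7 cholangiocyte and 2 macrophage markers higher and 2 macrophage markers lower, and without model rat 3 the hepatocyte median was -1.49 with 1 marker lower. In these fits 888 of 12884 and 2537 of 13159 tested genes were called. Of the remaining lists, 1 of 3 tested striated muscle and 2 of 4 tested adipocyte markers were called higher, and the lymphocyte, endothelial and erythroid lists held no call. The 7 cholangiocyte markers summed to 20.6 to 33.0 CPM in normal rats, 132 to 2024 CPM in model rats and 38.4 to 60.4 CPM in TA rats. Between TA and model livers the hepatocyte median was 0.97 and that of stellate cell markers -2.21, again with no call, and without model rat 1 they were 0.52 and -0.74. In bulk tissue, fewer hepatocytes and less subunit RNA in each hepatocyte cannot be told apart, and the part of cell composition in the subunit results was not tested.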

How the data were processed

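Liver RNA of 9 rats was measured, 3 in each group, with groups taken from the labels. The TA libraries are labelled TA1 to TA3 with no dose. The series' design text gives 3 mg/kg, so all were placed in a single group. The authors selected poly(A) RNA, sequenced paired ends on a NovaSeq instrument, trimmed the reads with Trimmomatic and Cutadapt, mapped them with STAR and counted them with HTSeq-count. The study's methods name a human build and the submitters' notes a mouse build (with DESeq2), whereas the gene symbols are those of rat, so no coordinates were taken from the tables. In 2 tables the authors deposited unnormalized counts of reads on each gene, together with FPKM values. Normalised values, fold changes and p-values of the authors are also in the tables and were not used. The tables held 16938 and 16948 genes.

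Counts were tested with edgeR 4.0.16 (R 4.3.3): TMM scaling, its filter on low counts, the quasi-likelihood test with only the compared groups and Benjamini-Hochberg adjustment over all tested genes. Levels in the text are CPM after TMM over all 9 libraries. DESeq2 1.42.0 and limma 3.58.1 were alternatives. The scripts were tested on simulated data. The members and gene lists were chosen with earlier results of these data known, and support nothing as independent evidence. Genes named are all mitochondrial members, landmark subunits, tissue isoforms, members past an adjusted p of 0.05, the 4 highest and 4 lowest nuclear members in each comparison and the 3 genes of smallest p of each other list. Further genes were named from their levels in normal liver, or as group examples, after their values were seen. Kinases whose symbols start like those of ribosomal proteins were removed from that list. All 81 nuclear members matched RefSeq (assembly GRCr8), 17 of them through an older symbol.

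Whether rats with the same number deviate together was checked over all tested genes. Between TA and normal livers the correlations of same-numbered rats were 0.26, 0.43 and 0.50. The values given there are from the fit without pairs, with the fit that takes the number as a block beside them. The correlation is seen in the data alone, and the labels say nothing of pairs. Normal rat 3 and TA rat 3 also shared a skew by transcript length (0.23 and 0.17), and its part in the correlation was not tested. The libraries of a group are labelled as replicates, and the p-values set the difference between groups against the spread between these libraries.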

Additional observations from a re-analysis of the deposited data

How the results depend on the processing

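Between model and normal livers the 3 calls became 52 with DESeq2, 47 with limma voom and sample weights, 15 with all 9 libraries in 1 fit, 5 with the newer quasi-likelihood form and 1 with library totals. Of all tested genes 1002 passed as reported, and 2654, 3433, 1757, 1118 and 1980 in these fits, in that order. The member calls ranged from 0 to 15 when each rat was left out, beside 0 to 2537 of all genes. The nuclear median was -0.21 under library totals and otherwise between -0.66 and -0.93, and leaving out rats gave -0.71 to -0.93. Between TA and model livers DESeq2 called 1 member (541 of all genes) and library totals gave a nuclear median of 0.14. Between TA and normal livers DESeq2 called 1 member (360 of all genes). No call changed direction. Under library totals 22, 26 and 19 of the tested members changed sign in the 3 comparisons, none of them called. DESeq2's size factors in edgeR, a stricter filter, a robust fit and leaving out mitochondrial genes left the 3 calls at 3, no filter gave 4 and upper quartile scaling 2. Of all genes 986, 970, 959, 1011, 1215 and 1145 passed in these fits, in that order. The causes of these differences were not tested.

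With the replicate number as a block, 3 members (1216 of all genes) were called between model and normal livers, but Ndufs5 no longer passed (edgeR adjusted p = 0.0648). Between TA and model livers 0 members and 0 of all genes were called. In these comparisons same-numbered rats correlated at 0.21, -0.06 and -0.05, and at 0.22, -0.04 and 0.01. So few correlations cannot decide whether these rats share more than a number, and the labels say nothing of it. Ndufb6 passed in all settings except library totals and the fits without a normal rat. In the latter fits at most 51 of all genes passed. With 3 rats in a group no sample was tested as an outlier. Cox6b2, with 1 to 9 reads in normal rats, and the untested isoforms are limited by depth.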
